A study of Mus musculus with 10 samples.

Results

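Thermogenic and beige adipocyte genes were examined in cultured adipocyte precursors (APs) with and without the type 2 cytokine IL-4. The 9 genes were chosen by name, from what they are known for in thermogenic fat, with earlier results of these data known. These 9 are a small part of the 18384 named genes listed in any library. They are the coactivators Ppargc1a and Ppargc1b, the transcription factors Prdm16 and Tbx1, the surface marker gene Tmem26, and the effector genes Ucp1, Ucp2, Dio2 and Cidea. Of these 9 genes, 7 passed the filter on low counts and 2, Ucp1 and Cidea, did not.

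For mRNA-seq, 3 cultures without the cytokine (control) and 3 with it were taken on day 4. Per the study's methods, the APs came from the subcutaneous white adipose tissue of C57BL/6 J mice, where cells with CD45 or CD31 were depleted and those with SCA-1 selected, and were grown in the same serum-containing medium with or without the cytokine. The methods describe no adipogenic cocktail for these cultures. The labels call the samples biological replicates without saying whether they came from separate animals, and p-values measure the spread between these cultures. The libraries held 28526779 to 29057784 expected counts each, so that depth hardly differed between the groups.

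Beige adipocytes arise within white fat and, like brown adipocytes, burn fuel to make heat. UCP1 in the inner mitochondrial membrane lets protons return without making ATP, and its gene is switched on by adrenergic signalling through cAMP. PRDM16 and the PGC-1 coactivators act upstream, with PPARγ, to set up the mitochondrial and thermogenic programme, while markers such as TMEM26 and TBX1 have been used to mark beige cells and their precursors.

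The labelled cell type was first compared with marker genes. Markers of APs were detected at very different levels. Ly6a (which encodes SCA-1) was at 120 ± 11.7 FPKM in control APs against 245 ± 40.4 FPKM with IL-4 (SD, n = 3). FPKM are fragments scaled by transcript length and by library depth. Pdgfra was at 55.3 ± 1.88 and 71.4 ± 10.3 FPKM, and the summed level of the 20 AP markers was 7258 to 7542 FPKM in control and 10524 to 11124 FPKM in IL-4 libraries. The collagen genes Col1a1 and Col3a1, which fibroblasts in general express, made up 74.0% to 81.2% of that sum, and without them it was 1842 to 1890 FPKM in control and 2085 to 2276 FPKM in IL-4 libraries. Dpp4, Pi16, Cd24a and Dlk1 were at 0.307 to 1.55 FPKM in control APs, and Pdgfrb, Lum, Icam1 and Dlk1 were lower with IL-4. Transcripts of macrophages and other leukocytes were present as well, although cells with CD45 had been depleted. Ptprc, which encodes CD45, was at 18.3 ± 1.16 FPKM in control APs against 8.22 ± 0.242 FPKM with IL-4. The summed level of 21 macrophage and leukocyte markers was 4980 to 6482 FPKM in control and 2090 to 2800 FPKM in IL-4 libraries, with 17 lower, 3 higher and 1 not past an adjusted p of 0.05 (edgeR, quasi-likelihood test). Of all 14009 genes tested, 18.4% were lower and 19.0% higher at that threshold. Aif1 and Cx3cr1, both lower, passed the filter on low counts only through the control libraries. The summed level of 16 macrophage genes listed as responding to IL-4 went the other way. It was 91.9 to 118 FPKM in control and 4030 to 5401 FPKM in IL-4 libraries. The 12 of them that were tested were all higher. Of these 12, Chil3, Chil4, Retnla, Ccl24, Pdcd1lg2 and Irf4 passed the filter only through the IL-4 libraries, where only a rise could be seen. Among the untested genes, mean FPKM was lower with IL-4 for Ccl17 (0.423 to 0.0967) and Alox15 (0.0967 to 0.0667). It was higher for Ccl22 (0.06 to 0.21) and Cd209a (0 to 0.0133). In such bulk cultures, a change in the number of cells of one kind and a change in RNA per cell cannot be told apart. Of 10 endothelial markers, 3 were higher and 4 lower, beside 19.0% and 18.4% of all genes tested. Their sum was 19.8 to 21.1 FPKM in control and 29.2 to 36.7 FPKM in IL-4 libraries, and they did not move as 1 group. Vwf and Flt1 rose by log2 fold changes of 3.08 and 2.66 (adjusted p = 2.7e-06 and 1.1e-05), Cdh5 and Emcn fell by 1.60 and 1.49 (adjusted p = 4.16e-05 and 0.00257), and Pecam1 (which encodes CD31) had 146 to 234 counts with an adjusted p of 0.235. Of 10 lymphocyte and eosinophil markers, 8 had at most 3 counts in every library, among them Cd3e.

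Among the 7 genes tested, 3 were higher in IL-4–treated APs past a log2 fold change of 1 with an adjusted p under 0.05, namely Tmem26, Ppargc1a and Ppargc1b, while 5.77% of all 14009 genes tested were. Of these 3, Ppargc1a passed the filter on low counts only through the IL-4 libraries. None of the 7 was lower by more than that fold, against 5.26% of all genes. At an adjusted p under 0.05 and any fold change, 1 of the 7, Ucp2, was lower, against 18.4% of all genes, and the same 3 were higher, against 19.0%. The study had already reported rises of Ppargc1a (as Pgc1-α) and Tmem26, and the genes were chosen with earlier results known. Their counts beside the shares of all genes are therefore a description, not an independent test. Prdm16, Tbx1 and Dio2 passed neither threshold, and Ucp1 and Cidea were at the limit of detection in both groups. Scaling by library totals in place of TMM shifted the log2 fold change of all genes by a median of -0.17, which lowered the share of higher genes among all calls at any fold change from 50.8% to 25.6%.

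**Figure D1:**
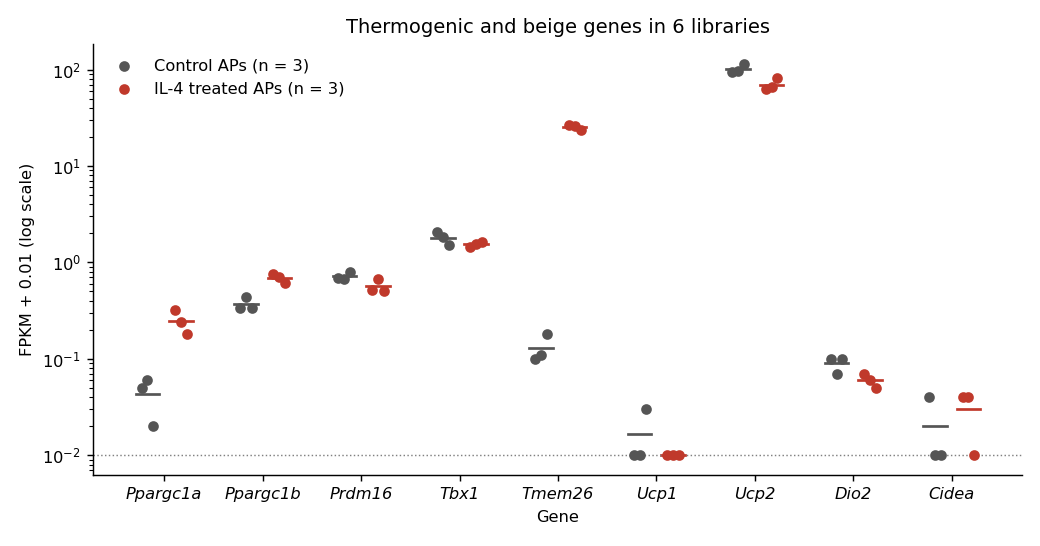
Level of each of the 9 genes in each mRNA-seq library, as FPKM plus 0.01 on a log axis; points are libraries (control grey, IL-4 red, n = 3 each), short lines are group means, and the dotted line marks 0 FPKM. Tmem26 moves from 0.09 to 0.17 FPKM in control to 23.51 to 26.46 FPKM with IL-4, Ucp2 is the most abundant gene in both groups, and Ucp1 and Cidea lie near 0.

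Per length, the order of the levels in control APs was Ucp2, Tbx1, Prdm16, Ppargc1b, Tmem26, Dio2, Ppargc1a, Cidea and Ucp1. Neighbours in that order had separate ranges except Tmem26 with Dio2, Ppargc1a with Cidea, and Cidea with Ucp1. In IL-4–treated APs Tmem26 stood second after Ucp2 and Ppargc1a stood above Dio2, while the ranges of Ppargc1b with Prdm16 and of Cidea with Ucp1 overlapped. Ucp2 made up 96.6% to 97.6% of the summed FPKM of the 9 genes in control libraries and 67.8% to 75.5% in IL-4 libraries. Tmem26 made up 0.0918% to 0.143% in control and 21.8% to 28.8% in IL-4 libraries.

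Ppargc1a encodes PGC-1α, the coactivator of mitochondrial biogenesis that cold and adrenergic signalling induce in brown fat. It lies on the minus strand at chr5:51454249-52115853 (GRCm38.p6, the assembly of mm10). Its expected counts were 7, 9 and 1 in control replicates 1, 2 and 3, and 57, 42 and 32 in IL-4 replicates 4, 5 and 6. Every IL-4 library lay above every control library, as for 25.2% of all genes tested in this direction. On the FPKM scale the control level was 0.0333 ± 0.0208 and the IL-4 level 0.237 ± 0.0702 (SD, n = 3), a low level in both. The fitted change was a log2 fold change of 3.07 (SE 0.48, 95% interval 1.97 to 4.17, edgeR adjusted p = 0.00141), or 8.41-fold. Ppargc1a passed the filter on low counts only through the IL-4 libraries, so that only a rise could have brought it into the test, and the 17 control reads leave the size of the fold change uncertain (95% Poisson interval of that sum 9.90 to 27.2, counting error only). The length that the files give matched the coding RefSeq transcript NM_008904 (6464 bases) in control 2, IL-4 4 and IL-4 5 and the noncoding NR_132764 (6404 bases) in control 1, control 3 and IL-4 6, so the reads did not settle on 1 transcript form.

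Ppargc1b encodes PGC-1β, the relative of PGC-1α that is tied to basal mitochondrial content. It lies on the minus strand at chr18:61291445-61400756. It had 34, 44 and 34 counts in control replicates 1 to 3 and 78, 72 and 63 counts in IL-4 replicates 4 to 6. The groups did not overlap, as for 25.2% of all genes tested in this direction. Its level was 0.363 ± 0.0577 FPKM in control APs against 0.68 ± 0.0755 FPKM with IL-4 (SD, n = 3), and the log2 fold change was 1.08 (SE 0.18, edgeR adjusted p = 0.00226), or 2.11-fold with a 95% interval of 1.58-fold to 2.83-fold. The interval reaches below the fold limit, and with library totals the estimate was 0.91. The transcript in the files is 3656 bases long, while the current RefSeq entry has 10328 bases, so that reads from the remaining 6672 bases were not counted here.

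The levels of the coactivators relative to each other were described by the ratio of their FPKM, which carries the limit given above for the few control reads of Ppargc1a. The ratio of Ppargc1a to Ppargc1b was 0.121, 0.116 and 0.0303 in control libraries and 0.413, 0.333 and 0.283 in IL-4 libraries. The FPKM are rounded to 0.01, so that the ratio of control 3, with Ppargc1a at 0.01 FPKM, is coarse. The ratios of counts, not scaled for length, were 0.206, 0.205 and 0.0294 in control libraries and 0.731, 0.583 and 0.508 in IL-4 libraries. All 3 IL-4 ratios were above the 3 control ratios. The mean log2 ratio was -3.24 ± 0.73 in control and -1.52 ± 0.26 with IL-4 (SD, n = 3, 0.01 FPKM added), a difference of 1.72 with an exact two-sided permutation p of 0.1, the smallest that 3 against 3 can give, so that no threshold of 0.05 could be passed. With 0.1 FPKM added the difference was 0.57, and control 3, with 1 read of Ppargc1a, gave the lowest ratio.

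**Figure D2:**
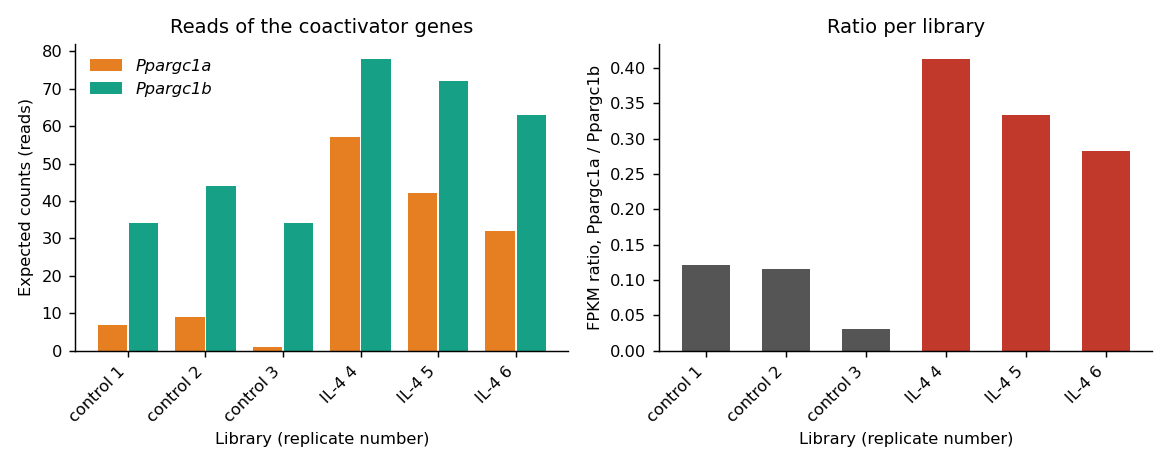
Left, expected counts of Ppargc1a (orange) and Ppargc1b (green) in each library; right, the ratio of their FPKM per library (control grey, IL-4 red). Ppargc1a has 1 to 9 reads in control and 32 to 57 with IL-4, Ppargc1b 34 to 44 and 63 to 78, and the ratio is higher in every IL-4 library.

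Prdm16 encodes the zinc finger protein that steers precursors to the brown and beige fate, and lies on the minus strand at chr4:154316122-154637360. Its counts were 166, 161 and 191 in control libraries and 125, 162 and 121 in IL-4 libraries. After scaling, the IL-4 libraries overlapped the control libraries. The level was 0.713 ± 0.0666 FPKM in control and 0.553 ± 0.0929 FPKM with IL-4 (SD, n = 3). The log2 fold change was -0.19 (95% interval -0.52 to 0.15, edgeR adjusted p = 0.353), an interval that leaves out a rise above 1.11-fold.

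Tbx1 encodes a T-box factor that has served as a marker of beige cells, and lies on the minus strand at chr16:18580979-18590671. It had 102, 91 and 74 counts in control libraries and 73, 77 and 81 in IL-4 libraries, which overlapped. The level was 1.79 ± 0.273 FPKM in control and 1.54 ± 0.0854 FPKM with IL-4 (SD, n = 3). The log2 fold change was -0.06 (95% interval -0.41 to 0.30, edgeR adjusted p = 0.809), which leaves room for changes between 0.751-fold and 1.23-fold.

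Tmem26 encodes a transmembrane protein of the cell surface that marks beige adipocytes, and lies on the plus strand at chr10:68723746-68782655. Its counts were 13, 14 and 24 in control replicates 1 to 3 and 3871, 3769 and 3461 in IL-4 replicates 4 to 6. No other of the 9 genes showed so wide a gap between the groups. The level was 0.12 ± 0.0436 FPKM in control APs against 25.2 ± 1.53 FPKM with IL-4 (SD, n = 3). The log2 fold change was 7.91 (SE 0.16, 95% interval 7.54 to 8.28, edgeR adjusted p = 6.76e-08), or 241-fold, and 18 of the 14009 genes rose by more. Among control libraries, replicate 3 had the most Tmem26 reads, and it also had the most reads of the macrophage genes Chil3 (77, against 4 and 9) and Arg1 (169, against 64 and 62), genes singled out after their values had been seen. Among IL-4 libraries the order differed. Replicate 6 had the fewest Tmem26 reads but the most of Chil3 (75844, against 58293 and 64612) and Arg1 (68770, against 50213 and 52187). Without control 3 the log2 fold change of Tmem26 was 8.23, and the part that macrophages may have in the Tmem26 reads was not tested.

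The promoters of Tmem26 and Ppargc1a, the genes with the largest rises, are shown to compare their letters with known motifs. Each runs 5′ to 3′ on the strand of its gene from 250 bases before to 50 bases after a RefSeq start site (GRCm38.p6), at chr10:68723496-68723795 on the plus strand and chr5:51567676-51567975 on the minus strand. Capitals mark matches to any motif searched.
Tmem26: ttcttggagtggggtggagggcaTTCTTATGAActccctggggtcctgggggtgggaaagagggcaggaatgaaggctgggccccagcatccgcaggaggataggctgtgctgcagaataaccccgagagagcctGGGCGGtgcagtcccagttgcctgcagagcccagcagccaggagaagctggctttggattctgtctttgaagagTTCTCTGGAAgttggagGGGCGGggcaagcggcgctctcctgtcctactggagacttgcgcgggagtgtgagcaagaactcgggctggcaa
Ppargc1a: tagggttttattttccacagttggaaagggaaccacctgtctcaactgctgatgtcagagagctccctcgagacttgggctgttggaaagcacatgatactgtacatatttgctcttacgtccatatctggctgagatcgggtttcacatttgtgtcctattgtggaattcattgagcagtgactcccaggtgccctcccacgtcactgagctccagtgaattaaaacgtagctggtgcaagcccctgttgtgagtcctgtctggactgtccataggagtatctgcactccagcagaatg
The IL-4 receptor acts through STAT6, whose preferred site is TTC and GAA with 4 free bases between them. The Tmem26 window held 2 matches, TTCTTATGAA starting 227 bases and TTCTCTGGAA starting 41 bases before the start site. At least 1 match was held by 6.95% of the 32851 promoter windows, and 2 or more by 0.323%. The other capitals in Tmem26 are GC boxes (GGGCGG), which 35.7% of windows held. The Ppargc1a window held no match to any of the 7 motifs searched.

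Windows of 7 of the 9 genes were described, and those of Ppargc1b and Cidea, both on chr18, were left out. Among the 7 genes, none but Tmem26 matched the motif with 4 free bases. The same motif with 3 free bases (TTCNNNGAA, in 8.3% of all windows) matched in none of the 7 genes, nor did the ERR motif TCAAGGTCA (0.423%) or a direct repeat of AGGTCA spaced by 1 base, the PPAR motif (0.0396%). Dio2 held the cAMP response element TGACGTCA (1.79% of windows) 95 bases and a TATA box (TATAAA, 13.6%) 30 bases before its start site. Ucp2, Prdm16 and 1 of the windows of Tbx1 held GC boxes, and Ucp1 held no match. Both strands were searched. A match describes letters, not binding.

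Ucp2 encodes a mitochondrial carrier related to UCP1 that many tissues and immune cells express, and lies on the plus strand at chr7:100493337-100499629, 6904 bases from Ucp3. It was the most abundant of the 9 genes, above 96.4% of all genes listed in control APs. Its level was 94.79, 95.98 and 115.63 FPKM in control replicates 1 to 3 and 62.33, 66.06 and 81.62 FPKM in IL-4 replicates 4 to 6. The groups did not overlap, as for 25.3% of all genes tested in this direction. Ucp2 fell to 77.3% of control, with a log2 fold change of -0.37 (SE 0.11, 95% interval -0.63 to -0.12, edgeR adjusted p = 0.0299). The fall was short of the fold limit, and its adjusted p was above 0.05 when control 2 (0.0546), control 3 (0.0955), IL-4 4 (0.0965) or IL-4 5 (0.108) was left out.

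The level of Ucp2 was set beside that of 21 macrophage and leukocyte markers. The summed marker level was 5019, 4980 and 6482 FPKM in control replicates 1 to 3 and 2090, 2205 and 2800 FPKM in IL-4 replicates 4 to 6. Control 3 and IL-4 6 were the highest of their groups in Ucp2 and in this sum. Lyz2, the most abundant marker, held 2469 to 3225 FPKM of the sum in control and 673 to 937 FPKM in IL-4 libraries, and without it the sum was 2497, 2510 and 3258 FPKM in control and 1417, 1486 and 1863 FPKM in IL-4 libraries. Single markers varied, since 19 of the 21 were highest of the control libraries in control 3 and 16 were highest of the IL-4 libraries in IL-4 6. Mrc1, Cd53 and Cd163 were higher with IL-4 (log2 fold changes 0.82, 0.85 and 0.88). Of the 21 markers, Cx3cr1, a chemokine receptor of tissue macrophages, fell from 1484 to 1853 counts in control to 3 to 5 counts with IL-4, and Aif1 from 162 to 296 counts to 6 to 13. The part of these cells in the Ucp2 level was not tested.

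**Figure D3:**
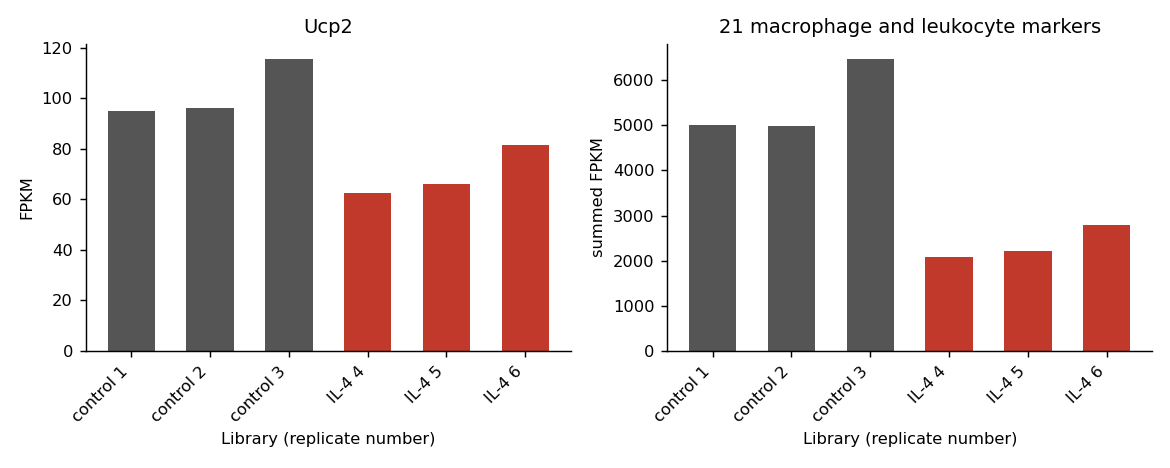
Left, FPKM of Ucp2 and right, summed FPKM of 21 macrophage and leukocyte markers, per library (control grey, IL-4 red). Both are lower in all 3 IL-4 libraries, and control 3 and IL-4 6 are the highest of their groups in both.

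Ucp1, the uncoupling protein of brown and beige fat, lies on the plus strand at chr8:83290348-83298456. Its counts were 0, 0 and 1 in control libraries and 0, 0 and 0 in IL-4 libraries. Its neighbour in the family, Ucp3, had 0, 0 and 0 and then 1, 1 and 0. A count of 0 allows up to 3 counts, or 0.0628 to 0.064 FPKM of Ucp1 in a library, so that a difference below this level was not detectable at this depth. With no filter on low counts, the edgeR adjusted p of Ucp1 was 0.51 over 18345 genes.

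Cidea encodes a lipid droplet protein that brown and beige adipocytes express, and lies on the plus strand at chr18:67343564-67367794. It had 1, 0 and 0 counts in control libraries and 1, 1 and 0 in IL-4 libraries, and its adjusted p with no filter was 0.693. The limit of 3 counts is 0.0887 to 0.0903 FPKM for this gene. Both groups were at or under it, and no fold change is given.

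Dio2 encodes the deiodinase that activates thyroid hormone within brown fat, and lies on the minus strand at chr12:90724552-90739038. It had 17, 11 and 16 counts in control libraries and 11, 9 and 8 in IL-4 libraries, and the scaled values overlapped. The level was 0.08 ± 0.0173 FPKM in control and 0.05 ± 0.01 FPKM with IL-4 (SD, n = 3). The log2 fold change was -0.49 (95% interval -1.19 to 0.21, edgeR adjusted p = 0.254), and the interval spans 0.439-fold to 1.15-fold. Dio2 reached the minimum count in all 3 control libraries but in 1 of the IL-4 libraries, so that it passed the filter through the control group. Dio3, which encodes the deiodinase that inactivates thyroid hormone, had 169, 231 and 264 counts in control and 77, 81 and 61 with IL-4 and fell by 1.44 on the log2 scale (adjusted p = 0.000699).

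**Figure D4:**
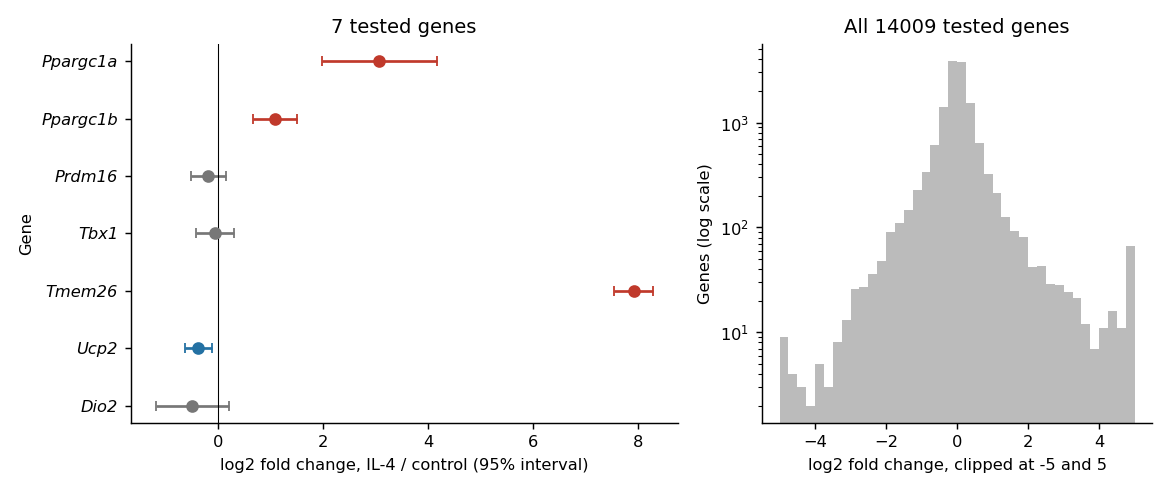
Left, log2 fold change (IL-4 over control) of the 7 tested genes with 95% intervals, red for higher, blue for lower and grey for not past an adjusted p of 0.05; right, the same measure for all 14009 tested genes, with numbers of genes on a log axis and values past its ends gathered in the outermost bars. Tmem26 lies at 7.91, while Prdm16, Tbx1 and Dio2 have intervals that include 0.

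Other genes of the same pathway were read from 5 lists with 130 genes, of which 105 were tested. At the fold limit, 9 (8.57%) were higher and 5 (4.76%) lower, beside 5.77% and 5.26% of all genes. Of the 9, Irf4, Ear2 and Slc36a2 passed the filter only through the IL-4 libraries, where they were higher. Of the 5, Pm20d1 passed it only through the control libraries. The share of higher genes therefore rests in part on the filter, and the lists were chosen with earlier results of these data known. At any fold change 27 (25.7%) were higher and 24 (22.9%) lower, beside 19.0% and 18.4% of all genes.

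Of 29 tested coregulators and transcription factors, 10 (34.5%) were higher and 2 (6.9%) lower at an adjusted p under 0.05, beside 19.0% and 18.4% of all genes. The median log2 fold change was 0.17 beside 0.0026 for all genes. Pparg, the nuclear receptor at the head of adipogenesis, had 300, 280 and 290 counts in control and 827, 804 and 1018 with IL-4 and rose by a log2 fold change of 1.76 (edgeR adjusted p = 4.82e-06). The part that macrophages may have in the Pparg reads was not tested. Irf4, a partner of PGC-1α in brown fat that macrophages also induce after IL-4, rose from 5, 14 and 12 counts to 135, 136 and 100 (log2 fold change 3.72, adjusted p = 3.56e-05). Ebf2, a factor of brown and beige precursors, rose by 0.62 (adjusted p = 0.0033). The falls were small, of Plac8 by 0.42 (adjusted p = 0.0109) and of Ehmt1, a partner of PRDM16, by 0.27 (adjusted p = 0.0264). The adjusted p of Ehmt1 was above 0.05 without control 1 (0.0828), control 2 (0.104) or IL-4 5 (0.0727). Irf4 reached the minimum count in 2 of the control libraries and passed the filter through the IL-4 group.

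Of 18 repressors of the programme, 2 (11.1%) were higher and 7 (38.9%) lower, beside 19.0% and 18.4% of all genes, with a median of -0.14. Zfp423, which holds white adipocytes in their fate, had 122, 154 and 104 counts in control and 76, 73 and 74 with IL-4 (log2 fold change -0.62, edgeR adjusted p = 0.0232). The adjusted p of Zfp423 rose to between 0.0521 and 0.0724 when control 1, control 2, IL-4 4 or IL-4 5 was left out. Trpv4, a channel that holds back thermogenic genes in adipocytes, fell by 0.64 (adjusted p = 0.00493). In the other direction, Foxo1 rose by 0.53 (adjusted p = 0.00186) and Tle3, which opposes PRDM16, by 0.21 (adjusted p = 0.0384). With library totals the value of Tle3 was 0.04 (adjusted p = 0.618), and its adjusted p was 0.09 to 0.124 without any 1 of control 1, control 2, control 3, IL-4 4 and IL-4 5.

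Of 30 effector genes of brown and beige adipocytes, 17 were tested. Of those tested, 3 (17.6%) were higher and 6 (35.3%) lower, beside 19.0% and 18.4% of all genes, with a median of -0.08. Another 10 had at most 3 counts in every library, among them Cox8b, Ucp3, Plin5 and Otop1. Aifm2, which takes part in glycolysis in brown fat, rose by 0.99 (edgeR adjusted p = 1.25e-05), and Gatm of creatine synthesis by 0.57 (adjusted p = 0.00226). Dio3, given above, and Pm20d1, the secreted enzyme that makes N-acyl amino acids, showed the largest falls of the list. Pm20d1 had 11, 16 and 12 counts in control and 7, 4 and 3 with IL-4 (log2 fold change -1.30, adjusted p = 0.0339), and passed the filter only through the control libraries. Its adjusted p was 0.0547 with no filter, 0.0914 with DESeq2, and 0.0605 to 0.115 without any 1 of the libraries other than IL-4 4.

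Of 19 tested beige or brown markers other than the 9 genes, 7 (36.8%) were higher and 5 (26.3%) lower. Of all genes, 19.0% and 18.4% were, and the median of the list was -0.01. Ear2, which encodes an eosinophil-associated ribonuclease, had no count in any control library and 199, 215 and 275 counts with IL-4, and no fold change is given against 0. Slc36a2, the amino acid transporter PAT2 of beige and brown adipocytes, rose from 7, 1 and 7 counts to 129, 116 and 138 (log2 fold change 4.79, edgeR adjusted p = 1.35e-05). Slc36a2 and Ear2 passed the filter only through the IL-4 libraries, so that only a rise could have brought them into the test. Tnfrsf9, which encodes the beige marker CD137 and was singled out after its values had been seen, had 17, 10 and 22 counts in control and 141, 188 and 161 with IL-4 (log2 fold change 3.47, adjusted p = 1.55e-05). Which cells of the cultures gave the Tnfrsf9 reads was not tested. Pdk4, the kinase that restrains pyruvate oxidation, fell by 1.19 (adjusted p = 0.000466) and Hspb7 by 0.99 (adjusted p = 3.9e-05). Slc7a10, the white adipocyte marker ASC-1, had 4, 0 and 0 counts and then 0, 2 and 2 and was not tested.

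Of 22 tested genes of adrenergic, cAMP and FGF21 signalling, 5 (22.7%) were higher and 4 (18.2%) lower, with a median of -0.01. These shares were close to the 19.0% and 18.4% of all genes. Adrb3, the adrenergic receptor of adipocytes, had 19, 18 and 17 counts in control and 41, 33 and 44 with IL-4 and rose by 1.27 on the log2 scale (edgeR adjusted p = 0.00162). Creb3l1 rose by 1.15 (adjusted p = 9.15e-06), and the phosphodiesterase gene Pde4b fell by 0.50 (adjusted p = 0.0141, and 0.0551 without control 1).

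**Figure D5:**
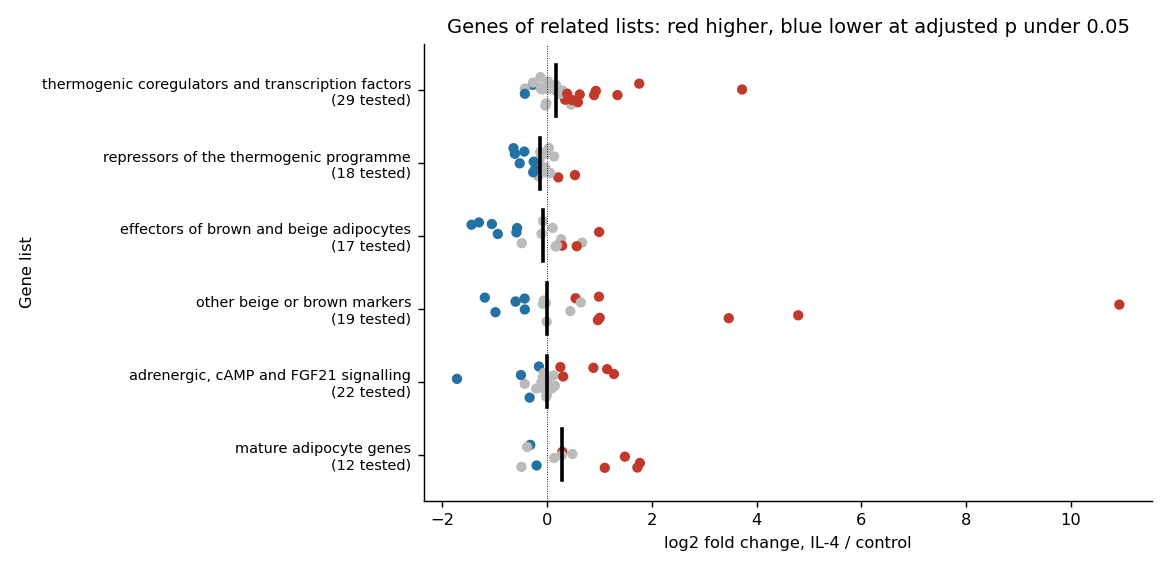
Log2 fold change (IL-4 over control) of each tested gene of 6 lists, the 5 pathway lists and the mature adipocyte genes; red points are higher and blue points lower at an adjusted p under 0.05, grey points did not pass, and black lines are medians. Medians lie between -0.14 and 0.29, and the point near 11 is Ear2, which had no control reads.

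Genes whose levels were closest to those of the 9 genes were found by the root mean square difference in log2(FPKM + 0.1) over the 6 libraries. Closest to Tmem26 was Serpina3c, at 0.133 FPKM in control APs against 24.8 FPKM with IL-4 (difference 0.218), followed by Lipn (0.646) and Msx3 (0.717). Closest to Ppargc1a were Grm7, Col6a4 and Rad51ap2 (0.175 to 0.278), and closest to Ppargc1b were Fign, Pmel and Slc7a14 (0.107 to 0.185). Ucp2 was closest to Ptges3, Anxa3 and Tuba1c (0.0923 to 0.112). Prdm16 was closest to Ttll7, Epha7 and Nlrp1a, Tbx1 to Carf, Zfp54 and Trmt44, and Dio2 to Adgrb2, Trpm6 and Sim1.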

How the data were processed

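The mRNA-seq files of 3 control and 3 IL-4–treated AP cultures were used, and the small RNA files were not used here. Reads were cleaned by the authors with SOAPnuke, and Bowtie2 with RSEM gave the gene levels. The submitters' processing notes also name HISAT, StringTie and mm10. The deposited files hold expected counts from RSEM without normalization. Their FPKM had been scaled by the authors for transcript length and for depth. Of the expected counts above 0, 87.0% were whole numbers. A gene not listed for a library was taken as 0. One row without a symbol (at most 0.000225% of a library) was left out.

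Expected counts were rounded, filtered (filterByExpr, minimum count 10, minimum total 15), scaled with TMM (factors 0.932 to 1.07) and tested over 14009 genes with edgeR 4.0.16 (glmQLFit and glmQLFTest, Benjamini-Hochberg adjustment) under R 4.3.3, without covariates. A call needed a log2 fold change beyond 1 in size with an adjusted p under 0.05. Alternatives were upper-quartile scaling, library totals, DESeq2 1.42.0, calls at any fold change, limma 3.58.1 on FPKM after log2 with 1 or 0.1 added, no filter, another pseudocount for the ratio, and leaving out each library. The scripts were tested on simulated data with 200 of 13882 genes changed. There, 8.25% of the calls at an adjusted p under 0.05 (edgeR, any fold change) fell on unchanged genes. Of the genes changed 1.5-fold 80% were recovered, and of those changed 2-fold 98%. These shares were not split by expression level. They therefore do not describe recovery of genes with few counts, such as Dio2, Pm20d1 and, in control APs, Ppargc1a.

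The 9 genes and the 12 gene lists were chosen with earlier results of these data known. Named from each list were the 2 largest rises and 2 largest falls past an adjusted p of 0.05 and the genes that the study names, with the 3 closest genes for each tested gene. One gene that this rule names is not reported here. Lists were described by counts, with no set test. Promoter windows came from RefSeq (GRCm38.p6).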

Additional observations from a re-analysis of the deposited data

How the results depend on the processing

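No paired analysis was possible because the control libraries are numbered 1 to 3 and the IL-4 libraries 4 to 6, so that the groups share no replicate number.

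Of the 9 genes, 3 were called higher with TMM, upper-quartile scaling, DESeq2 and no filter, 2 with library totals and with limma on log2(FPKM + 0.1), and 1 with limma on log2(FPKM + 1), a scale that compresses low genes. With no fold limit 1 was called lower. Under the same 2 settings, limma on log2(FPKM + 1) and no fold limit, 348 and 2663 of all genes were higher and 352 and 2582 lower, and of the pathway list genes 4 and 27 were higher and 2 and 24 lower. With each library left out, 3 to 3 of the 9 genes were higher and 0 to 0 lower, 812 to 835 of all genes were higher and 699 to 738 lower, and 8 to 12 pathway list genes were higher and 3 to 5 lower, with 3 without IL-4 replicate 6. The log2 fold change of Ucp2 then ranged from -0.48 to -0.28. The log2 difference in the ratio of Ppargc1a to Ppargc1b was 0.57 with 0.1 FPKM added and 1.30 to 1.96 with a library left out, where the smallest possible exact permutation p is 0.2. The log2 fold changes of Tmem26, Ppargc1a and Ppargc1b stayed above 0 with an adjusted p under 0.05 in all these fits (edgeR, DESeq2 and limma). Depth limits Ucp1, Cidea, Dio2 and the control level of Ppargc1a.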

Other observations

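Genes of mature adipocytes were described as well. Of the 19, 12 were tested, 5 were higher and 2 lower at an adjusted p under 0.05 (edgeR, quasi-likelihood test), beside 19.0% higher and 18.4% lower of all genes tested, with a median log2 fold change of 0.29 and a summed level of 373 to 375 FPKM in control and 727 to 795 FPKM in IL-4 libraries. The rise of this sum lay mostly in Lpl, Cd36 (mean 40.4 to 101 FPKM) and Fabp4 (34.8 to 66.1 FPKM), and does not describe the list as a whole. Mean levels of Fasn (31.2 to 19.6 FPKM) and Acaca (14.2 to 9.65 FPKM) were lower with IL-4, without passing an adjusted p of 0.05. Lpl, which encodes lipoprotein lipase and which macrophages express too, was at 160 ± 2.19 FPKM in control and 469 ± 34.0 FPKM with IL-4 (SD, n = 3). It rose by a log2 fold change of 1.72 (adjusted p = 8.06e-07), Plin4 of the lipid droplet coat by 1.77 (adjusted p = 2.34e-05) and Fabp4, the fatty acid binding protein aP2, by 1.10 (adjusted p = 0.000302). Lipe, which encodes hormone-sensitive lipase, fell by 0.32 (adjusted p = 0.0432) and Adipor2 by 0.20 (adjusted p = 0.025). Plin1, Lep, Cfd and Retn, which mature fat cells express, had at most 3 counts in every library.

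Of 20 AP markers, 9 were higher and 4 lower, beside 19.0% and 18.4% of all genes tested, with a median of 0.40 beside 0.0026. Pi16, a marker of early interstitial progenitors, had 47, 50 and 50 counts in control and 682, 646 and 829 with IL-4 (log2 fold change 4.02, adjusted p = 2.62e-07), and Wnt2, which passed the filter through the IL-4 group, rose by 4.42 (adjusted p = 1.55e-05). Pdgfrb, a receptor of mural and precursor cells, fell by 0.66 (adjusted p = 0.000989) and Dlk1, known as preadipocyte factor, by 0.67 (adjusted p = 0.0492). Of 11 muscle and mesothelial markers, 4 were tested, with Wt1 and Krt19 higher (log2 fold changes 2.23 and 0.76) and Cnn1 and Myh11 lower (-1.98 and -0.68). Myf5, which marks the muscle-like lineage of brown fat, had at most 3 counts in every library.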
